A study of Mus musculus with 8 samples.

Results

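The integrins, laminins and hemidesmosome proteins of the mouse molar are described here as a set of 37 genes out of the 43629 genes counted. Members were taken by name: every numbered integrin alpha and beta subunit in the files, laminin alpha, beta and gamma chains, and Itgav, Nid1, Nid2, Dst, Plec, Fermt1, Fermt2 and Cd151. All 37 had enough counts to be tested, the lowest count of a member in an embryo being 41. RNA was sequenced from the lower first molars of 8 mouse embryos at E18.5, with the left and right molar of an embryo pooled into 1 sample. The 4 Mutant embryos (K14J26, K14J28, K14J29 and K14J30) were K14cre;Jagged1 fl/fl, in which Cre under the keratin 14 promoter, active in epithelium, deletes both floxed alleles of the Notch ligand gene Jagged1. The 4 Control embryos (J3, J5, J6 and J7) were Jagged1 fl/fl littermates by their labels, so that both groups carried the floxed alleles, while the methods of the study call these animals wild type. Sex and litter were not given for single embryos, and the tooth was sequenced whole, with epithelium, mesenchyme, vessels and blood cells together.

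Integrins are receptors made of an alpha and a beta subunit that span the cell membrane and bind proteins of the extracellular matrix or of other cells. Laminins are trimers of an alpha, a beta and a gamma chain and form the sheet of the basement membrane on which epithelia rest, and nidogens link that sheet to the collagen IV network. In stratified and dental epithelia laminin with the Lama3 and Lamb3 chains is the ligand of the integrin made of Itga6 and Itgb4, which anchors keratin filaments to the basement membrane at the hemidesmosome through the plakins Plec and Dst. In the tooth, the basement membrane separates the inner enamel epithelium from the dental mesenchyme until ameloblasts and odontoblasts mature and lay down enamel and dentin.

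Library totals ran from 17327224 to 28613574 counts in the Control and from 24692128 to 29792467 counts in the Mutant embryos. Jag1 stood at 95.2, 103, 104 and 99.8 CPM (read counts relative to TMM-scaled library sizes) in the Control embryos J3, J5, J6 and J7. In K14J26, K14J28, K14J29 and K14J30, the Mutant embryos, it stood at 33.97, 38.9, 45.9 and 57.1 CPM. The groups did not overlap, and the log2 fold change was -1.19 with a standard error (SE) of 0.14 (adjusted p = 0.00517, quasi-likelihood test of edgeR). In the same order below, values per embryo are given for J3, J5, J6 and J7 and then for K14J26, K14J28, K14J29 and K14J30. Markers of dental epithelium, odontoblasts, dental mesenchyme and endothelium were all detected, and no marker on any of the lists was at 0 in every embryo.

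The Mutant embryos differed widely among themselves in the genes of secretory ameloblasts. The mean log2 level of Amelx, Ambn, Enam, Mmp20 and Klk4 was 4.79, 6.14, 6.88 and 4.75 in the Control embryos and 11.78, 6.95, 9.79 and 8.18 in the Mutant embryos. Amelx, Ambn and Enam together took 9.57% of all counts of K14J26 and at most 2.47% in any other embryo. Genes of skeletal muscle summed to 408 CPM in J6 and 204 CPM in J7 and to between 5.81 and 19.2 CPM in the other 6 embryos. In such whole-tissue samples, a change in the number of cells of a type and a change in RNA per cell cannot be told apart.

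Of the 37 genes, 7 rose and 2 fell in the Mutant molars at an adjusted p under 0.05, from the quasi-likelihood fit of edgeR with p-values adjusted by Benjamini and Hochberg over all 17129 genes tested. Those that rose were Lama3, Itgb6, Dst, Itga10, Itgb4, Itga11 and Itgb7, and those that fell were Itga8 and Fermt2. Over all genes tested, 9.52% were called higher and 6.61% lower, against 18.9% and 5.41% of the 37 genes. Called in either direction were 24.3% of the 37 genes and 16.1% of all genes. Without J6 and J7, the embryos with muscle genes, edgeR called none of the 37 genes, and over all genes it called 3 higher and 4 lower (0.0415%). At an unadjusted p under 0.05 it then gave 9 members higher and 2 lower, against 12 and 7 with all embryos. The share of all genes passing this unadjusted p was not counted, so no excess among the members can be read from these numbers. Without J6 and J7, the log2 fold changes of the called members were 2.90 for Lama3, 1.33 for Itgb6, 1.06 for Itga10, 0.90 for Dst, 0.81 for Itgb4, 0.60 for Itga11, 0.55 for Itgb7, -0.39 for Itga8 and -0.28 for Fermt2. Each had the sign it had with all embryos. Under an unadjusted p of at most 0.05 with a log2 fold change of at least 0.5 in size, Itgb2 and Lamb3 joined the higher genes and Fermt2 left the lower ones, giving 9 higher and 1 lower (8.33% and 5.85% of all genes).

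The median log2 fold change was 0.0019 over the 37 genes and 0.0058 over all genes, and the median size of the change was 0.25 against 0.22. Of the 28 members not called, 15 had a log2 fold change under 0.20 in size. The 4 Control and 4 Mutant values did not overlap for 13 members (35.1%), 8 of them higher and 5 lower. Over all genes 24.2% had no overlap, 12.6% with higher and 11.6% with lower Mutant values. Of these 13, 5 were not called.

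**Figure D1:**
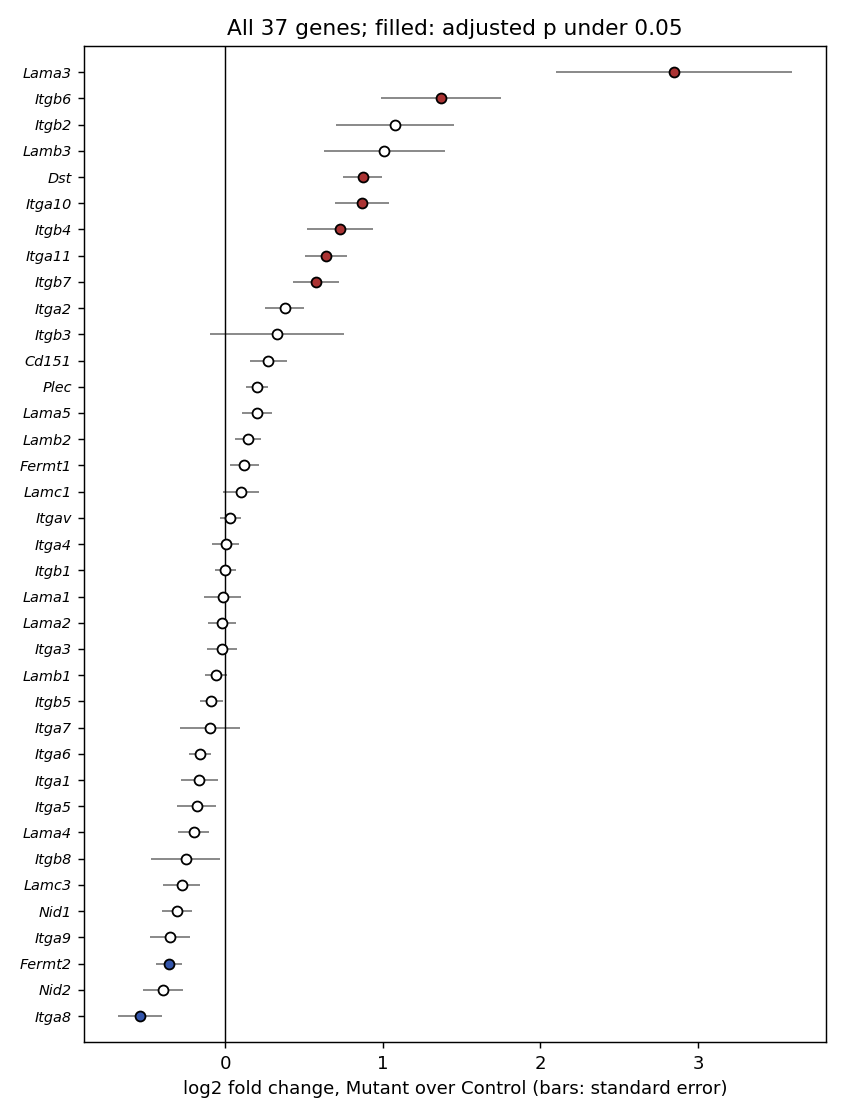
Log2 fold change of the Mutant over the Control group (horizontal axis) for each of the 37 genes, ordered by size, with bars of 1 standard error and filled points for an adjusted p under 0.05. Lama3 (2.85) lies farthest to the right with the widest bar, and Itga8 (-0.54) lies farthest to the left.

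Lama3 and Lamb3, chains of epithelial laminin, had the largest fold changes among the 10 laminin chains described, and Lama3 alone passed the test. Lama3 (chr18:12333819-12583013, GRCm38) encodes the alpha chain. It stood at 34.6, 29.1, 36.1 and 32.9 CPM in the Control embryos and at 655, 56.7, 189 and 54.9 CPM in the Mutant embryos. Every Mutant embryo lay above every Control embryo, but K14J26 and K14J29 lay far above the other Mutant embryos. The fitted change was 7.19-fold, a log2 fold change of 2.85 with an SE of 0.75 (adjusted p = 0.0347, quasi-likelihood test of edgeR, n = 4 per group). Without K14J26 it was 1.60 (adjusted p = 0.0229), and the adjusted p lay between 0.0741 and 0.0951 when J3, J5, J6, J7 or K14J29 was left out and was 0.0657 in a robust fit.

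Lamb3 (chr1:193207699-193343878), the beta chain, stood at 161, 183, 191 and 158 CPM in the Control and at 699, 167, 306 and 223 CPM in the Mutant embryos. K14J28 lay within the Control range and the other 3 Mutant embryos above it. The log2 fold change was 1.01 (SE 0.38) and did not pass the test (adjusted p = 0.0961), and without K14J26 it was 0.42 (adjusted p = 0.108). Without K14J28 the adjusted p was 0.0264.

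Since Jagged1 is a Notch ligand, the 250 bases before the RefSeq transcript starts (GRCm38.p6) were read for the core letters bound by RBPJ, the DNA-binding partner of Notch, namely TGGGAA on either strand. RefSeq entries were found for 25 of the 37 genes, with 30 windows. The letters occurred in 8 of the 30 windows (26.7%) and in 21.6% of 32851 promoter windows of the genome. A Lamb3 window is shown because Lama3 was not matched to an entry. It lies at chr1:193301993-193302242 on the plus strand, and the capitals mark the letters, read on the opposite strand, 165 bases before the start.
Lamb3: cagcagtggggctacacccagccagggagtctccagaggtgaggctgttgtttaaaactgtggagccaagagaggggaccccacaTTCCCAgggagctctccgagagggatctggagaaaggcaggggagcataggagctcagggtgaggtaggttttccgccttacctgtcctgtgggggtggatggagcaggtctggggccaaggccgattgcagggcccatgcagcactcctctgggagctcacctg
The other Lamb3 window, at chr1:193301744-193301993, also held the letters once, 213 bases before its start. A match of 6 letters describes the sequence and is not a binding site.

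**Figure D2:**
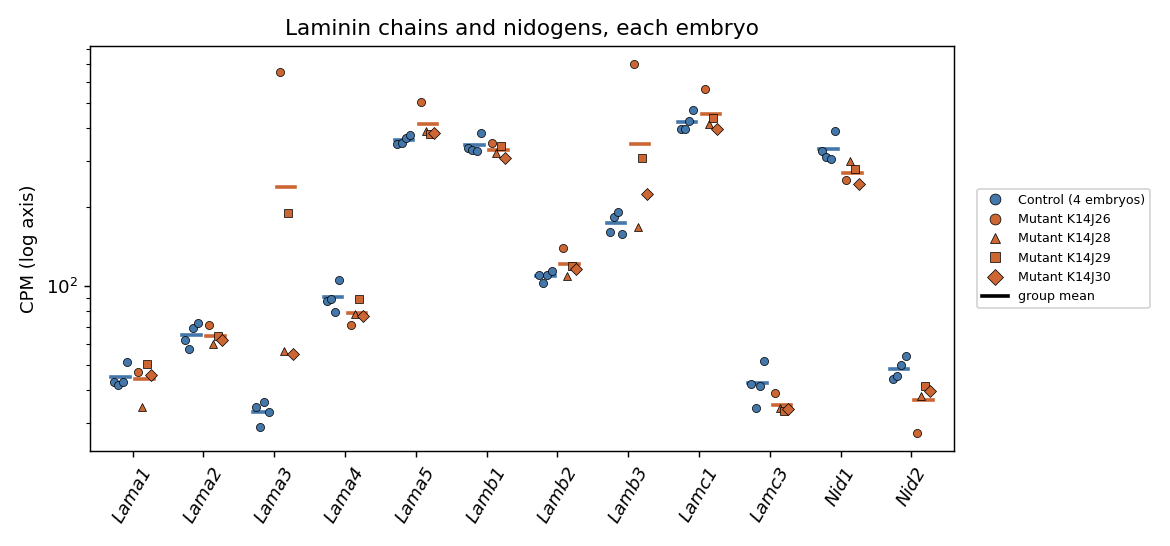
CPM of each laminin chain and nidogen on a log axis, with 4 Control embryos in blue, 4 Mutant embryos in orange with a symbol each, and a short line at each group mean. In Lama3 and Lamb3 the circle (K14J26) and the square (K14J29) stand above all other embryos, while the widely used chains Lamb1 and Lamc1 overlap between groups.

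The widely expressed chains gave no call. Lama5, the main alpha chain of most embryonic epithelial basement membranes, stood at 347, 350, 366 and 375 CPM in the Control embryos and at 501, 390.0, 380.2 and 384 CPM in the Mutant embryos. All Mutant values lay above all Control values, but the log2 fold change of 0.20 (SE 0.09) did not pass the test (adjusted p = 0.158), and it was 0.10 without K14J26. Lamb1 and Lamc1, the beta and gamma chains shared by most laminins, had log2 fold changes of -0.06 and 0.10. Lamb2, which replaces Lamb1 at vessels, nerves and the kidney filter, had a log2 fold change of 0.15.

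The other alpha chains gave no call. Lama1, the alpha chain of the early embryo, stood at 43.1, 42.1, 43.0 and 51.1 CPM in the Control embryos and between 34.4 and 50.3 CPM in the Mutant embryos. Lama2, the chain of muscle and nerve, ran from 57.5 to 72.4 CPM over all 8 embryos, including J6 and J7 with their muscle genes. Lama4, the chain of vessel walls, had a log2 difference between groups of -0.20 (adjusted p = 0.181). Lamc3, a gamma chain of restricted expression, had a log2 difference between groups of -0.27 (adjusted p = 0.131), with all Mutant values between 33.2 and 39.2 CPM and Control values between 34.4 and 51.6 CPM.

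Divided by exon length, so that chains can be set beside each other, the make-up of the laminin chains in K14J26 and K14J29 differed from that in the other embryos. Lama3 made up 5.56% to 6.61% of the alpha chain level (CPM per kb of exon) in the Control embryos. In the Mutant embryos, its share was 50.8% in K14J26, 9.91% in K14J28, 26.1% in K14J29 and 9.51% in K14J30. Each Mutant share lay above each Control share.

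Lama5 was the leading alpha chain in every Control embryo, with 60.5% to 63.3%. It held 64.3% in K14J28 and 62.7% in K14J30, but 36.7% in K14J26 and 49.5% in K14J29. Lamb3 made up 29.4% to 36.2% of the beta chain level in the Control embryos and 64.4%, 33.5%, 46.2% and 40.3% in the Mutant embryos, with K14J28 inside the Control range.

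**Figure D3:**
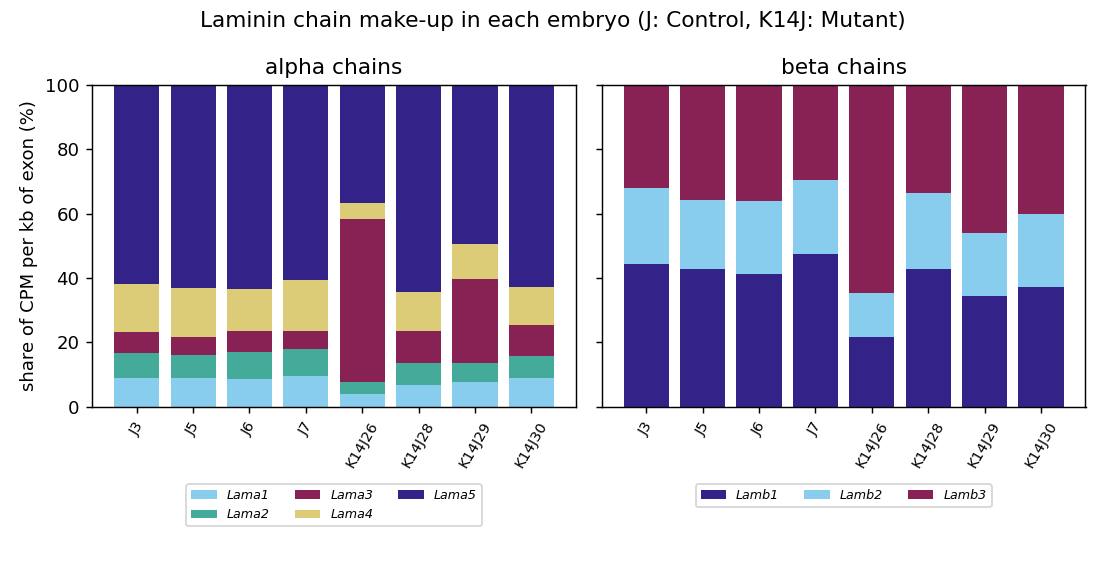
Share of each laminin chain in the summed CPM per kb of exon of its family (alpha or beta), with a bar for each embryo. The Lama3 and Lamb3 parts are largest in K14J26 (50.8% and 64.4%) and next largest in K14J29 (26.1% and 46.2%).

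Lama3 and Lamb3 did not stay in a fixed ratio across the embryos. The level of Lama3 over that of Lamb3, each in CPM per kb of exon, was 0.132, 0.0975, 0.116 and 0.129 in the Control and 0.576, 0.208, 0.38 and 0.151 in the Mutant embryos. Every Mutant ratio lay above every Control ratio, with K14J26 the highest and K14J30 the nearest to the Control range.

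Both nidogens lay lower in all Mutant embryos and neither passed the test. Nid1, the main laminin-binding nidogen, stood at 326, 310, 305 and 389 CPM in the Control and at 253, 299, 280 and 244 CPM in the Mutant embryos, a log2 fold change of -0.31 (SE 0.10, adjusted p = 0.0596). Nid2, its relative, stood at 44, 45.2, 49.8 and 54.1 CPM in the Control and at 27.5, 38.04, 41.4 and 39.9 CPM in the Mutant embryos, a log2 fold change of -0.39 (SE 0.13, adjusted p = 0.0634). The adjusted p of Nid1 was 0.0272 without K14J28, and that of Nid2 was 0.0428 without K14J26. Of the exon bases of Nid2, 8.45% are shared with Rtraf on the opposite strand, and the library kit does not mark strand.

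At the hemidesmosome, Dst and Itgb4 rose while Itga6 and Plec did not pass the test. Dst (chr1:33908225-34308661) encodes dystonin, whose epithelial form ties keratin filaments to the hemidesmosome and whose neural and muscle forms come from the same gene. Its values were 417, 457, 469 and 448 CPM in the Control embryos and 1046, 687, 826 and 717 CPM in the Mutant embryos. The lowest Mutant embryo stood well above the highest Control embryo, and the fitted change was 1.83-fold, a log2 fold change of 0.87 (SE 0.13, adjusted p = 0.00773, quasi-likelihood test of edgeR, n = 4 per group). Dst was the only member called whichever single embryo was left out, with log2 fold changes of 0.73 to 0.94 and adjusted p from 0.00256 to 0.0365. Counts per gene do not tell the forms of Dst apart.

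RefSeq gave 2 windows for Dst. That at chr1:34160010-34160259 on the plus strand is shown for its RBPJ letters, 194 bases before the start. Of the called members with an entry, only Dst held these letters in a window. The called members Lama3 and Itgb4 had no entry and were not read. The capitals mark these letters as read on the opposite strand.
Dst: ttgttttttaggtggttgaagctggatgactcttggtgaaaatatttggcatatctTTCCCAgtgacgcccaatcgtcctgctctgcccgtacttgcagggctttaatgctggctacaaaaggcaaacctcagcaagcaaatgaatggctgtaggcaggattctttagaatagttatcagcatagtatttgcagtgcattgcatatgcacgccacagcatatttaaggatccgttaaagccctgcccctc
The window at chr1:34011345-34011594 did not hold the letters.

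Itgb4 (chr11:115974709-116008412) encodes the beta subunit with the long cytoplasmic tail that binds Plec. It stood at 191, 236, 272 and 208 CPM in the Control and at 545, 257, 365 and 339 CPM in the Mutant embryos. K14J28 lay below J6, so the groups overlapped, while the other 3 Mutant embryos lay above all Control embryos. The log2 fold change was 0.73 (SE 0.21, adjusted p = 0.0436, quasi-likelihood test of edgeR). It was 0.50 without K14J26 (adjusted p = 0.0375) and 0.87 without K14J28 (adjusted p = 0.0107), and the adjusted p lay between 0.0568 and 0.117 when any of the other 6 embryos was left out and was 0.0564 in a robust fit.

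Itga6 (chr2:71745616-71858416), the partner of Itgb4 in the hemidesmosome and of Itgb1 elsewhere, did not follow Itgb4. Its values were 441, 468, 410 and 459 CPM in the Control and 437, 393, 386 and 375 CPM in the Mutant embryos, with K14J26 inside the Control range. The log2 fold change was -0.16 (SE 0.07, adjusted p = 0.140). Without K14J26 it was -0.21 (adjusted p = 0.0482).

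Per kb of exon, the ratio of Itgb4 to Itga6 was 0.559, 0.649, 0.853 and 0.583 in the Control embryos. In the Mutant embryos it was 1.60, 0.841, 1.21 and 1.16, so that Itgb4 exceeded Itga6 in 3 of 4 Mutant embryos and in no Control embryo. K14J28 lay just below J6. Which of the 2 subunits stands higher depends on the merged exon lengths used as divisors. In CPM without this division, Itgb4 exceeded Itga6 only in K14J26 (545 against 437 CPM).

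Plec (chr15:76170974-76232574), the plakin that joins Itgb4 to keratins, stood at 161, 155, 170 and 172 CPM in the Control embryos. In the Mutant embryos it stood at 212, 179, 182 and 186 CPM, above every Control embryo. The log2 fold change was 0.20 (SE 0.07, adjusted p = 0.0754). Cd151, the tetraspanin that associates with the laminin-binding integrins, stood at 132 to 146 CPM in the Control and at 209, 136, 172 and 157 CPM in the Mutant embryos, a log2 fold change of 0.27 (SE 0.12, adjusted p = 0.130). Without K14J26 it was 0.15 (adjusted p = 0.2002), and without K14J28 it was 0.36 (adjusted p = 0.0264).

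Beside these members, a list of keratins with collagen XVII gave 1 higher and 1 lower call among 10 genes (9.52% and 6.61% over all genes), with a median log2 fold change of 0.37. The list was not limited to keratins anchored at hemidesmosomes. Krt14, a keratin of basal epithelial cells and the source of the promoter that drives Cre, stood at 824, 867, 974 and 735 CPM in the Control embryos and at 2375, 1098, 1741 and 1379 CPM in the Mutant embryos (log2 fold change 0.96, SE 0.21, adjusted p = 0.0217). Krt18, a keratin of simple epithelia, fell by 0.76 on the log2 scale (adjusted p = 0.00528). Col17a1, the transmembrane collagen of the hemidesmosome, stood at 259, 295, 359 and 300 CPM in the Control and at 657, 354, 442 and 384 CPM in the Mutant embryos, with an adjusted p of 0.0569. Over 12 dental epithelium markers, Krt14 among them, summed levels were 5590 to 6520 CPM in the Control and 6630 to 9590 CPM in the Mutant embryos, 2 of the 12 being called higher, and the part of epithelial content in the hemidesmosome values was not tested.

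Among the 8 beta subunits, Itgb6, Itgb4 and Itgb7 rose. Itgb6 (chr2:60598292-60722643) encodes the epithelial subunit that pairs with Itgav and activates latent TGF-beta, and mice without it form defective enamel. It stood at 27.6, 36.7, 37.5 and 24.3 CPM in the Control embryos and at 151, 38.8, 84.6 and 51.5 CPM in the Mutant embryos. K14J28 lay barely above the highest Control embryo and K14J26 far above it. The change was 2.58-fold, a log2 fold change of 1.37 (SE 0.38, adjusted p = 0.0412, quasi-likelihood test of edgeR). It was 0.89 without K14J26 (adjusted p = 0.0361), and the adjusted p lay between 0.0699 and 0.114 without J3, J5, J6, J7 or K14J29 and was 0.0623 in a robust fit.

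Neither of the 2 RefSeq windows of Itgb6 held the RBPJ letters, those of RUNX (TGTGGT, found in 14% of all windows and 2 of the 30) or those of AP-1 (TGANTCA, found in 6.75% of all windows and in none of the 30), each read on both strands. The window of the gene's 5′ start is shown, at chr2:60722604-60722853 on the minus strand, because Itgb6 rose most among the called members with an entry. It has no capitals.
Itgb6: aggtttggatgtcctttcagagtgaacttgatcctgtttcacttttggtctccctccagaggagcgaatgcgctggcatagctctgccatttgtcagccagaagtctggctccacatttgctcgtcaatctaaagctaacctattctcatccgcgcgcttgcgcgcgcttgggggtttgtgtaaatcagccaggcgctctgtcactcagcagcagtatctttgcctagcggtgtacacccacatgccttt
The absence of the letters concerns these windows only.

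Itgav, the alpha subunit that pairs with Itgb6 as well as with Itgb1, Itgb3, Itgb5 and Itgb8, was not called. It ran from 239 to 260 CPM in the Control and from 236 to 280 CPM in the Mutant embryos (log2 fold change 0.03). The ratio of Itgb6 to Itgav per kb of exon was 0.175, 0.213, 0.227 and 0.141 in the Control and 0.880, 0.210, 0.497 and 0.330 in the Mutant embryos. K14J28 lay inside the Control range of this ratio, and the other 3 lay above it.

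Itgb7 (chr15:102215995-102231944), a subunit of lymphocyte integrins that pairs with Itga4, was expressed at a low level. It stood at 4.59, 4.90, 4.36 and 4.79 CPM in the Control and at 7.88, 8.11, 5.65 and 6.24 CPM in the Mutant embryos, without overlap. The log2 fold change was 0.58 (SE 0.15, adjusted p = 0.0313, quasi-likelihood test of edgeR), and the adjusted p lay between 0.0505 and 0.0811 without J3, J5, J6, J7 or K14J29 and was 0.0760 with scaling by library size only. Leukocyte markers summed over 7 genes to 77.7 to 105 CPM in the Control and to 73.2, 212, 108 and 103 CPM in the Mutant embryos. K14J28 was the highest in both, while K14J26 had the next highest Itgb7 value and the lowest leukocyte sum. The part of leukocytes in the Itgb7 value was not tested, and without K14J28 its log2 fold change was 0.49 (adjusted p = 0.0403).

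Itgb2 and Itgb3 were highest in K14J28 as well. Itgb2, the beta subunit common to leukocyte integrins, stood at 2.27, 4.53, 2.33 and 2.80 CPM in the Control and at 3.70, 11.4, 5.33 and 4.77 CPM in the Mutant embryos. The fitted log2 fold change was 1.08 (SE 0.37, adjusted p = 0.0760), 0.62 without K14J28 and 1.26 without K14J26, where the adjusted p was 0.0341. Itgb3, the subunit that with Itgav forms the main integrin of osteoclasts, stood at 16.0, 29.2, 13.2 and 16.1 CPM in the Control and at 15.2, 48.2, 16.2 and 13.8 CPM in the Mutant embryos, a log2 fold change of 0.33 (SE 0.43) that became -0.31 without K14J28.

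Summed over 5 osteoclast markers, levels were 300.0 to 681 CPM in the Control embryos, with J5 highest, and 300.0, 1810, 614 and 560 CPM in the Mutant embryos. J5 and K14J28 were thus the highest embryos of their groups in Itgb2, Itgb3 and the osteoclast markers alike. The part of osteoclasts and leukocytes in these values was not tested.

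The other beta subunits gave no call. Itgb1, the partner of most alpha subunits, stood at 751, 811, 822 and 825 CPM in the Control and at 781, 824, 856 and 753 CPM in the Mutant embryos. The fitted log2 fold change was 0.00 (SE 0.06), and per kb of exon it was the most abundant of the 37 genes, at 197 CPM per kb in both groups. Itgb5, a vitronectin receptor subunit, had a log2 fold change of -0.09. Itgb8, which with Itgav activates latent TGF-beta, stood at 7.66 to 11.2 CPM in the Control and at 5.72 to 11.5 CPM in the Mutant embryos, for a log2 difference of -0.25 (SE 0.22, adjusted p = 0.437), which was -0.50 without K14J28 (adjusted p = 0.0584).

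**Figure D4:**
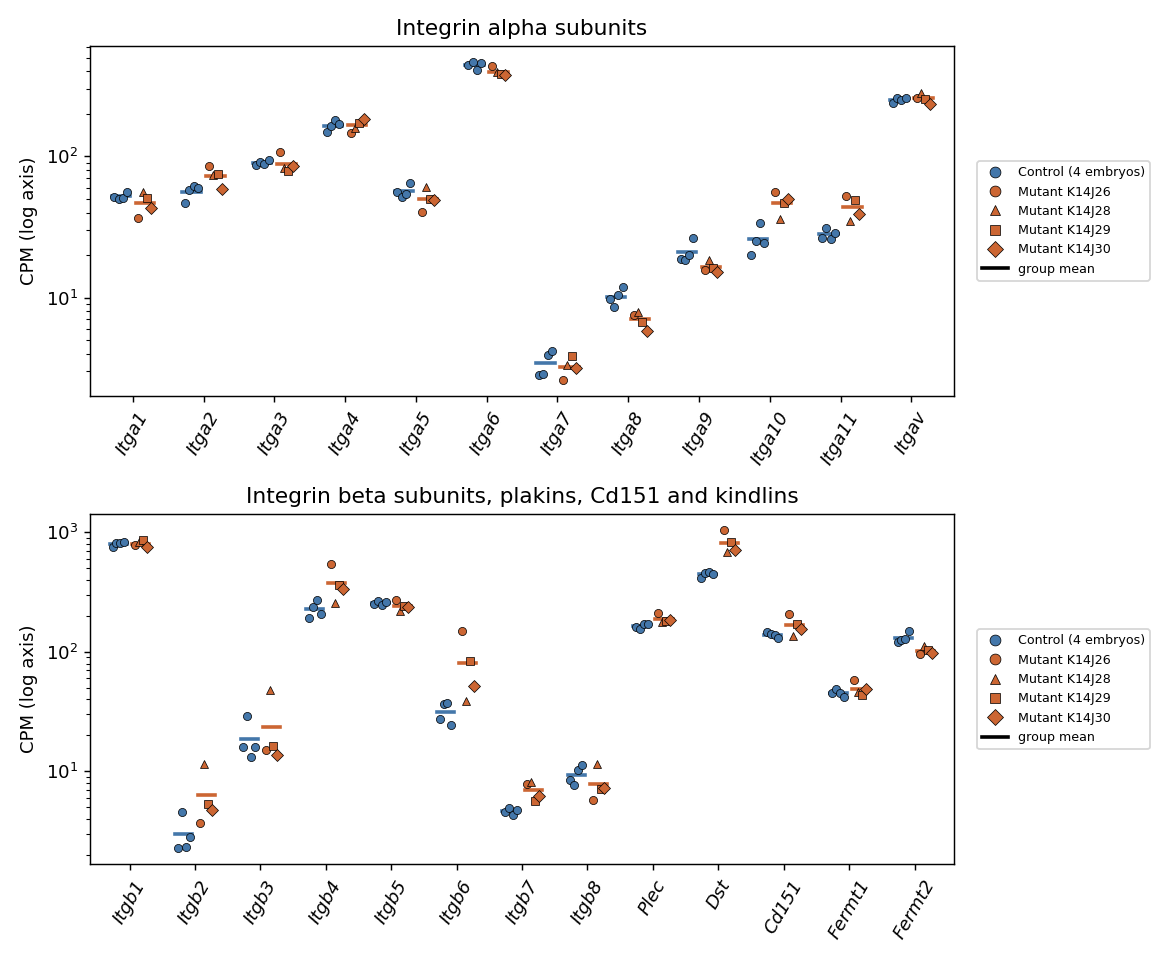
CPM on a log axis for the integrin alpha subunits (upper panel) and for the beta subunits, plakins, Cd151 and kindlins (lower panel), with 4 Control embryos in blue, 4 Mutant embryos in orange with a symbol each, and a short line at each group mean. Dst, Itga10 and Itga11 separate the groups, whereas Itga6, Itgb1 and Itgav overlap, and the triangle (K14J28) stands highest in Itgb2 and Itgb3.

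Among the 12 alpha subunits, the collagen receptors Itga10 and Itga11 rose and Itga8 fell. Itga10 (chr3:96645584-96664519), a collagen receptor known from cartilage, stood at 19.9, 25.0, 33.8 and 24.4 CPM in the Control and at 55.5, 36.3, 46.9 and 49.7 CPM in the Mutant embryos. The groups did not overlap, though K14J28 lay close above J6. The change was 1.82-fold, a log2 fold change of 0.87 (SE 0.17, adjusted p = 0.0167, quasi-likelihood test of edgeR), and the adjusted p lay between 0.0522 and 0.0583 without J5, J7 or K14J29. Of its exon bases, 33.5% are shared with the annotated gene Gm42957 on the same strand, which was not among the genes counted.

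Itga11 (chr9:62677826-62783982), the receptor of fibrillar collagen on mesenchymal cells, stood at 26.5, 31.3, 26.1 and 28.5 CPM in the Control embryos and at 52.6, 35.1, 48.8 and 38.9 CPM in the Mutant embryos. Again there was no overlap. The change was 1.56-fold, a log2 fold change of 0.64 (SE 0.13, adjusted p = 0.0178), and the adjusted p lay between 0.0566 and 0.0609 without J3, J7 or K14J29.

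Markers of odontoblasts, the collagen-secreting cells of dentin, moved with the groups in part: 4 of the 5 were called higher, against 9.52% of all genes, and their sum was 4500 to 8440 CPM in the Control and 24100, 7800, 17200 and 13700 CPM in the Mutant embryos, K14J28 lying below J6. Their part in the values of Itga10 and Itga11 was not tested. Of the remaining collagen receptors, Itga2 stood at 46.4 to 61.5 CPM in the Control and at 85.1, 73.7, 74.7 and 58.8 CPM in the Mutant embryos (log2 fold change 0.38, SE 0.12, adjusted p = 0.0638, and 0.0337 without K14J30). Itga1 had a log2 difference between groups of -0.16 (adjusted p = 0.358).

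Itga8 (chr2:12106632-12301922), a receptor for nephronectin and other ligands with the RGD motif on mesenchymal cells, was low and fell. It stood at 9.69, 8.57, 10.5 and 11.9 CPM in the Control and at 7.54, 7.85, 6.75 and 5.82 CPM in the Mutant embryos. The Mutant level was 31.2% lower, a log2 fold change of -0.54 (SE 0.14, adjusted p = 0.0330, quasi-likelihood test of edgeR). The adjusted p lay between 0.0642 and 0.0933 without J3, J6, J7, K14J29 or K14J30.

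The other RGD receptor Itga5, which binds fibronectin with Itgb1, had a log2 difference between groups of -0.18 (adjusted p = 0.319). The laminin receptor Itga3, the epithelial partner of Itgb1, stood at 86.5, 91.5, 87.6 and 93.6 CPM in the Control and at 107, 82.6, 78.8 and 86.1 CPM in the Mutant embryos, a log2 fold change of -0.02. Itga7, the laminin receptor of muscle, ran from 2.60 to 4.19 CPM and was not called. Itga4, a receptor for fibronectin and vascular adhesion molecules, had a log2 fold change of 0.00. Itga9, a receptor for tenascin and other matrix ligands, had a log2 difference between groups of -0.35 (adjusted p = 0.0873) without overlap between groups.

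Of the kindlins, which bind integrin beta tails and switch integrins to their active form, Fermt2 fell and Fermt1 was not called. Fermt2 (chr14:45458795-45530118), the kindlin of most tissues, stood at 121, 125, 128 and 148 CPM in the Control and at 95.6, 112, 103 and 97.7 CPM in the Mutant embryos. The groups did not overlap. The Mutant level was 21.9% lower, a log2 fold change of -0.36 (SE 0.08, adjusted p = 0.0234, quasi-likelihood test of edgeR), and the adjusted p lay between 0.0502 and 0.0695 without J3, J5, J7 or K14J29. Fermt1, the epithelial kindlin, had a log2 difference between groups of 0.12 (adjusted p = 0.383).

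Among 30 focal adhesion adaptors that act inside the cell with these receptors, 1 rose and 3 fell, against 9.52% higher and 6.61% lower over all genes, with a median log2 fold change of -0.04. Ptk2b, a kinase related to focal adhesion kinase, rose with a log2 fold change of 0.79 (adjusted p = 0.00667). Fyn, a kinase of the Src family, fell with -0.50 (adjusted p = 0.0123), as did the talin-binding Kank2 with -0.32 (adjusted p = 0.0152) and the cytoskeletal adaptor Zyx with -0.31 (adjusted p = 0.0282). Each of these 4 had no overlap between the groups.

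Among 28 other basement membrane components and receptors, 5 rose and 6 fell (9.52% and 6.61% over all genes), with a median log2 fold change of 0.16. Papln, a proteoglycan-like matrix protein, stood at 78.7, 118, 162 and 87.3 CPM in the Control and at 997, 160, 372 and 248 CPM in the Mutant embryos (log2 fold change 1.99, SE 0.52, adjusted p = 0.0348). Sparc, a calcium-binding matrix protein, rose with a log2 fold change of 0.93 (adjusted p = 0.0323), and the SPARC relatives Smoc1 and Smoc2 fell with -1.09 (adjusted p = 0.0365) and -1.04 (adjusted p = 0.0300). K14J28 lay within the Control range for Papln and Sparc.

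The spread among Mutant embryos exceeded that among Control embryos for 27 of the 37 genes, and the median coefficient of variation (CV, the SD over the mean) was 14.8% against 9.32%. K14J26 was the highest Mutant embryo for 6 of the 7 genes that rose, the exception being Itgb7, and for 20 of all 37. For Dst, Itgb4, Itgb6 and Itga11, the 4 Mutant embryos stood in the order of their ameloblast gene score, K14J26, K14J29, K14J30 and K14J28. This held for 9 of the 37 genes in all. The shares of all genes with this order, with a larger Mutant spread or with K14J26 highest were not counted.

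**Figure D5:**
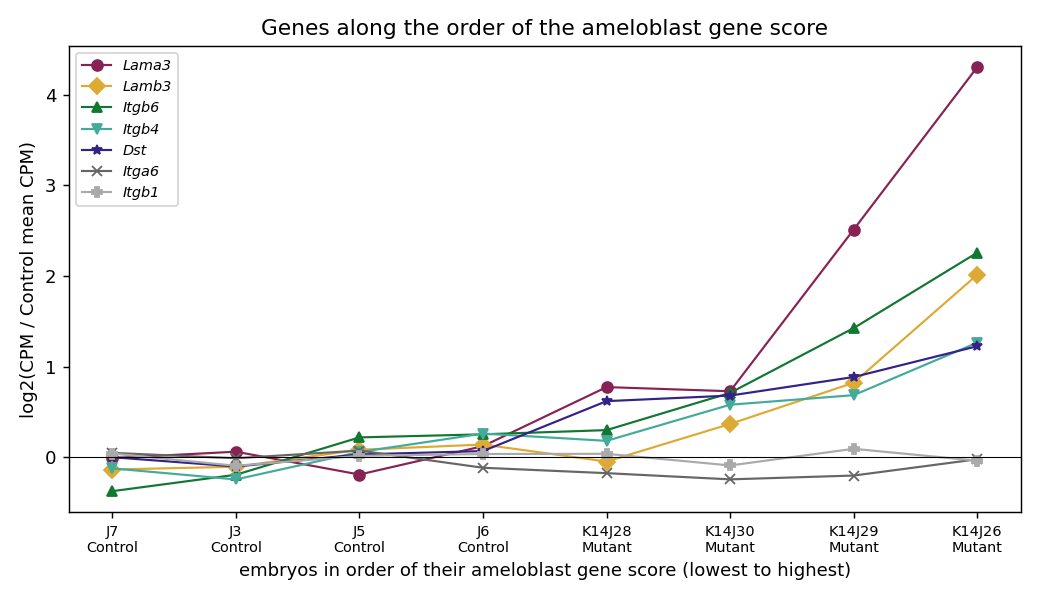
Log2 ratio of each embryo's CPM to the Control mean (vertical axis) for 7 of the genes, with the embryos placed from left to right by their ameloblast gene score. Lama3, Itgb6 and Lamb3 climb most steeply over the 3 embryos at the right, Dst and Itgb4 climb less, and Itga6 and Itgb1 stay near 0.

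With the ameloblast gene score as a covariate, Dst was the only member called (1 of 37, against 1.74% of all genes under the same fit), with a log2 fold change of 0.45 (adjusted p = 0.0387, quasi-likelihood test of edgeR). The fitted group difference then was -0.25 for Lama3, -0.51 for Lamb3, -0.17 for Itgb6 and -0.04 for Itgb4, none of them called. It was 0.61 for Itgb7, 0.40 for Itga10, 0.25 for Itga11, -0.51 for Itga8 and -0.22 for Fermt2, also without a call. The score follows the groups, since all Mutant embryos had a higher score than all Control embryos, so that group and ameloblast gene level cannot be told apart in full.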

How the data were processed

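Bulk RNA-seq of lower first molars was analysed in 8 embryos, 4 in each group by their labels. The authors trimmed reads with Trimmomatic and by 5 bases at the 3′ end, aligned them with STAR to GRCm38 (GRCm38.p3 in the submitters' processing notes) and deposited raw read counts per gene for each embryo. The counter is GenomicRanges in the study's methods and featureCounts in the processing notes. The use of strand and of reads with several matches is not given in the sources used here, and the library kit (TruSeq RNA v2) does not mark strand, so reads of overlapping genes on opposite strands cannot be told apart. No normalization was applied to the deposited counts. A level of 3 counts, set here as a floor, corresponds to at most 0.173 CPM of an unscaled library.

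From these counts, genes were kept that reached 10 counts in 2 or more of a group's 4 embryos, as in the study's filter, leaving 17129 of 43629. They were scaled by TMM and tested without covariates by edgeR 4.0.16's quasi-likelihood test in R 4.3.3, with Benjamini-Hochberg adjustment over all genes kept. A call is an adjusted p under 0.05, and the standard error is the size of the log2 fold change over the root of F. The looser criteria (unadjusted p of at most 0.05, log2 fold change of at least 0.5 in size) are those of the study, read on the log2 scale. Positions, symbols and exon lengths are from GENCODE M21 (GRCm38), and promoter windows from RefSeq (GRCm38.p6). CPM were divided by the length of the merged exons where genes are compared. Scores are means of log2(CPM + 0.1). The fit was tested on simulated data. Replicate embryos differed by more than sampling noise (chi-square per degree of freedom of 6.73 to 276), and no library repeated another.

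The members, the gene lists beside them and the alternatives were chosen with earlier results of these data known. Of the 38 genes that the choice by name takes, 1 is not reported here and is left out of all counts of members. The other 37 are named. Those called, and Itga6, Itgb4, Itga3, Itgb1, Lama3, Lamb3, Lama5, Itgb6, Plec and Dst in any case, are given per embryo, and from each list the 4 called genes with the largest change are named. Further per-embryo values (Nid1, Nid2, Cd151, Itga2, Itgb2, Itgb3 and Col17a1) were chosen after their values were seen. Alternatives were other scalings, filters and tests (DESeq2 1.42.0 among them), 4 covariates and leaving out embryos. The embryos of a group are separate animals.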

Additional observations from a re-analysis of the deposited data

Results flagged for a closer look

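In 4 of the 74 groups of 4 embryos examined (37 genes in each of 2 genotypes), a single embryo stood far from the other 3, by a gap that, over the whole range, passed Dixon's critical value. Chance gives such a gap in about 1 in 20 groups. Lama5 in the Mutant embryo K14J26 stood at 501 CPM, with the next at 390.0 CPM, and Lamc3 at 39.2 CPM, with the next at 34.2 CPM. Itgb3 stood at 48.2 CPM in the Mutant embryo K14J28, where osteoclast markers were also highest, with the next at 16.2 CPM. In the Control group, Lama1 stood at 51.1 CPM in J7, with the next at 43.1 CPM. Lama3 in K14J26, at 655 CPM with the next at 189 CPM, was below this limit.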

How the results depend on the processing

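The counts of 7 higher and 2 lower members stayed within 1.5 times under library size, upper-quartile and relative log expression scaling, without Amelx, Ambn and Enam before scaling, and under both other count filters. The robust quasi-likelihood fit called 4 members higher, without Lama3, Itgb6 and Itgb4, and Itgb7 was not called with library size scaling. DESeq2 called 9 higher and 4 lower, the Xist covariate 8 higher and 4 lower, and the study's looser criteria 9 higher and 1 lower. With the ameloblast gene score as a covariate, 1 member was called higher and 0 lower, and 0 in either direction with the dental epithelium or the skeletal muscle score or without J6 and J7. The log2 fold changes were 0.94 for Dst, 3.08 for Lama3, 1.501 for Itgb6 and 0.79 for Itgb4 with the epithelium score and 0.86, 2.51, 1.22 and 0.76 with the muscle score. At an unadjusted p under 0.05, edgeR then gave 4 members higher and 4 lower with the ameloblast score, 11 and 3 with the epithelium score, 8 and 3 with the muscle score and 9 and 2 without J6 and J7. The share of all genes passing this unadjusted p was not counted, and DESeq2 was not run under these settings. With each embryo left out in turn, the number called higher ran from 1 to 9 and the number called lower from 0 to 4. The cause of these differences was not tested. The whole table moved with them. It held 1631 genes called higher and 1133 lower, against 186 and 112 with the ameloblast score, 1 and 1 with the epithelium score, 44 and 43 with the muscle score, 1510 and 799 with Xist, 1564 and 1126 in the robust fit, 2244 and 1718 with DESeq2, 1426 and 1002 under the looser criteria and 3 and 4 without J6 and J7. Genes called higher numbered 300 without J7, 250 without K14J29 and 2479 without K14J28. No paired analysis was possible because the labels share no replicate number between the groups.

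Sign changes were seen for members near 0 and under covariates, given here as log2 fold changes. With the ameloblast gene score as a covariate, they were 0.18 for Itga5, -0.011 for Lama5, -0.041 for Itgb4, -0.25 for Lama3, 0.26 for Itgb8, 0.031 for Itga7, -0.098 for Cd151, -0.010 for Itgb1, -0.17 for Lamc1, -0.51 for Lamb3, -0.17 for Itgb6, -0.077 for Fermt1, 0.13 for Itga1 and -0.036 for Lamb2. With the dental epithelium score, they were 0.060 for Itga3, 0.0093 for Lamb1, 0.0001 for Lama2, -0.0013 for Itgb1, -0.020 for Itga4 and 0.11 for Lama1. With Xist, they were 0.12 for Itga3, 0.041 for Lama2, -0.44 for Itgb3, -0.070 for Itgb1, -0.0082 for Itga4, -0.033 for Itgav and 0.055 for Lama1. With the skeletal muscle score, they were 0.065 for Lama2, 0.15 for Itga7 and 0.036 for Lama1. Without J6 and J7, they were 0.10 for Lama2, 0.18 for Itga7 and 0.053 for Lama1.

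Scaling, filters and single embryos also turned signs. Under relative log expression, the values were -0.0018 for Itgb1 and -0.0018 for Itga4. Under upper-quartile scaling, they were -0.041 for Itgb1, -0.039 for Itga4 and -0.0095 for Itgav. Library size scaling, which moved the median of all genes to -0.09, gave -0.097 for Itgb1, -0.016 for Lamc1, -0.091 for Itga4 and -0.066 for Itgav. Without Amelx, Ambn and Enam, the values were -0.0076 for Itgb1 and -0.0072 for Itga4. The fit without a count filter gave -0.0003 for Itgb1, and that with the CPM filter gave -0.0091 for Itgb1 and -0.0085 for Itga4. DESeq2 gave -0.0018 for Itgb1 and -0.0017 for Itga4. With single embryos left out in turn, values ran from -0.12 to 0.033 for Itga3, -0.089 to 0.027 for Lama2, -0.31 to 0.62 for Itgb3, -0.19 to 0.010 for Itga7, -0.029 to 0.032 for Itgb1, -0.023 to 0.16 for Lamc1, -0.051 to 0.057 for Itga4, -0.013 to 0.074 for Itgav and -0.081 to 0.083 for Lama1. The lowest count of a member in an embryo was 41, and counting error is part of the spread between embryos for members with so few counts.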

Other observations

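Of 7 integrin genes of leukocytes and platelets whose names fall outside the choice of members, 4 had enough counts to be tested and 1 was called (16.1% over all genes). Itgax, an alpha subunit of myeloid and dendritic cells, stood at 0.221, 0.330, 0.363 and 0.338 CPM in the Control and at 0.432, 0.665, 0.797 and 0.776 CPM in the Mutant embryos, without overlap (log2 fold change 1.08, SE 0.30, adjusted p = 0.0409, edgeR's quasi-likelihood test). Itgax met the count filter only through the Mutant embryos, where it was higher, and its levels were low (3 counts are at most 0.173 CPM). No conclusion is drawn from its call. Leukocyte markers summed over 7 genes to 73.2, 212, 108 and 103 CPM in the same Mutant embryos, and their part in the Itgax value was not tested.

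Of 22 tested genes listed as ligands of RGD-binding integrins or, by family, as partners of latent TGF-beta, 3 rose and 1 fell (9.52% and 6.61% over all genes). Their median log2 fold change was 0.24. Dspp, the precursor of the dentin phosphoproteins, stood at 350.0, 1047, 1376 and 398 CPM in the Control and at 6550, 1800, 4694 and 2640 CPM in the Mutant embryos (log2 fold change 2.31, SE 0.54, adjusted p = 0.0247). Ltbp2, an elastic fibre protein of the family named for binding latent TGF-beta, rose with a log2 fold change of 0.96 (adjusted p = 0.0159), and the matrix glycoprotein Tnc with 0.42 (adjusted p = 0.0198). Ccn1, a matricellular ligand of integrins, stood at 30.8, 31.2, 29.7 and 38.2 CPM in the Control and at 7.83, 13.5, 11.1 and 12.1 CPM in the Mutant embryos (log2 fold change -1.54, SE 0.16, adjusted p = 0.00485). None of these 4 genes overlapped between the groups, and every Mutant value of Ccn1 was below every Control value.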
